A study of Equus caballus with 4 samples.

Results

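F-box and ASB proteins are the adaptors through which cullin ubiquitin ligases choose their substrates. The genes described here are those that the array files name with a symbol made of FBXO, FBXL, FBXW or ASB and a number. *FBXO30* and *FBXO32* were left out by that rule and are not analysed here. This gave 69 genes among 24998 gene or transcript names on the array, measured by 100 of 43603 probes. There were 15 ASB, 16 FBXL, 32 FBXO and 6 FBXW genes.

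An F-box protein holds its substrate with leucine-rich repeats (FBXL), WD repeats (FBXW) or another domain (FBXO), and its F-box binds *SKP1*, which is carried by the scaffold cullin 1. ASB proteins hold substrates with ankyrin repeats and bind elongin B, elongin C and cullin 5 through their SOCS box. In skeletal muscle such ligases remove structural and signalling proteins during differentiation, growth and wasting.

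Messenger RNA of differentiating equine satellite cells (ESC), the stem cells of skeletal muscle, was compared on 4 two-colour arrays with and without HMB (*β*-hydroxy-*β*-methylbutyrate), which the body makes from leucine. The primary cells came from the *semitendinosus* muscle of colts and had been preplated against fibroblasts. HMB was added for 24 h after day 2 of differentiation, so that both groups were taken at day 3, and control ESC received none. The labels give the dose as 50 µg whereas the methods give it in µM. The description field of the samples calls them GO-treated, and the titles, which say HMB, were followed. HMB-treated ESC were in Cy5 and control ESC in Cy3 on all arrays of the slide. As the dyes were not exchanged, the bias of a probe towards a dye is part of its ratio, and *P* values measure the spread between arrays. The labels do not say which colt is on which array, or whether both channels of an array share a colt.

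Values are log2 ratios of HMB over control, so that a positive value is more and a negative value less mRNA with HMB. To be tested, a probe had to exceed background clearly in Cy3 on all 4 arrays, or in Cy5 on all 4. This was so for 53 of the 69 genes (70 of 100 probes), and the other 16 genes were too dim. Of the 53, 48 had both channels above background on all arrays. The other 5 (*ASB2*, *ASB4*, *ASB7*, *FBXO16* and *FBXO21*) were tested through the brighter channel, a filter that favours genes that differ.

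Of the 53 genes, 10 passed an adjusted *P* of 0.05, which is 18.9%, against 22.4% of the 15614 genes tested on the array. HMB-treated ESC had less mRNA for 7 of them (*ASB2*, *ASB5*, *ASB7*, *FBXL4*, *FBXO16*, *FBXO44* and *FBXW7*), and 11.6% of all genes were lower. They had more for 3 (*ASB16*, *FBXO21* and *FBXW4*), and 10.9% of all genes were higher. Among the 48 genes bright in both channels, 6 passed (12.5%), against 20.8% of 14791 such genes on the array. The share called was thus no higher than among other genes, and what follows concerns single genes. Of 21 genes of these families with a place in muscle 16 were tested, 4 fell and 2 rose (37.5%), with a median log2 ratio of -0.12. Of the 13 of them bright in both channels 4 passed (30.8%, against 20.8%). The list, which includes *FBXO34* from outside the rule, was made with earlier results of these data known. Its shares are thus a description and not a test.

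*ASB2* and *ASB5*, both adaptors of cullin 5 found in skeletal muscle, were lower with HMB. *ASB2* directs the filamins, which tie the cytoskeleton to the membrane, to breakdown. The probes are shown because *ASB2* is measured by a pair that differ by a shift of 1 base, and because *ASB7* and *FBXO21* also have overlapping pairs. Capitals mark the bases that the probes of a pair share. All are listed 5′ to 3′ as the array files give them.
ASB2 tested probe: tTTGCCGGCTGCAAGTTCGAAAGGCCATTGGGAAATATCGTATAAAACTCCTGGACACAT
ASB2 dim probe: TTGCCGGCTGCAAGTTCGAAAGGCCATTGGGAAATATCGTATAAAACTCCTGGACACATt
ASB5: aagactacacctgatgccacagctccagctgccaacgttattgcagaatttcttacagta
ASB7 tested probe: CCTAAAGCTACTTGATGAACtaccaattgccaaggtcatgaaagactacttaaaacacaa
ASB7 dim probe: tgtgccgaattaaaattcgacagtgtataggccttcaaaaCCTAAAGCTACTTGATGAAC
ASB16: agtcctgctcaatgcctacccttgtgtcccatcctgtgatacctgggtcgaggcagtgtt
FBXW4: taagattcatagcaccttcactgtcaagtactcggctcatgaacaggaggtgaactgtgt
FBXO21 tested probe: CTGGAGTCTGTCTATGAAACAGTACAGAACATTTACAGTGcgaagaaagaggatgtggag
FBXO21 dim probe: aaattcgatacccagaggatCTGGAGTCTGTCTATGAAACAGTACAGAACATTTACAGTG
In the EquCab1 build named by the files, the tested *ASB2* probe lies at chr24:36105594-36105653 and the *ASB5* probe at chr27:31703771-31703830. The tested *ASB7* probe lies at chr1:103041116-103041175, that of *ASB16* at chr11:18120147-18120206, that of *FBXW4* at chr1:27661726-27661785 and that of *FBXO21* at chr8:16070019-16070078. *ASB2* and *ASB16* are listed with descending coordinates and the others with ascending ones. Each spans 60 bases, so that no intron lies within it, and the files assign each to a transcript of its gene. Which part of the transcript it covers was not analysed here.

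*ASB2* had log2 ratios of -0.80, -1.28, -1.14 and -2.59 on arrays 1 to 4. All arrays were lower with HMB, and array 4, where the HMB channel was not above background, was the lowest. The mean was -1.45 (SD 0.78, *n* 4, adjusted *P* 0.016). The processed signal was 38.1, 32.6, 22.8 and 24.6 in control ESC and 21.9, 13.4, 10.4 and 4.10 in HMB-treated ESC. Control ESC were well above background on all 4 arrays and HMB-treated ESC on 1, so the fold is a bound, at least 1.68-fold lower from the deposited signals, and its size depends on how background is handled. With a background correction that adds an offset, the mean was -0.46, a smaller fall than that bound. It was still past the threshold (adjusted *P* 0.007, with 0.007 to 0.137 over the alternatives that tested it). The probe shifted by 1 base was above background on 3 control and 2 HMB channels and was not tested, with ratios of -0.65, -0.61, -0.90 and -2.08. It too was negative on all arrays and lowest on array 4. As both probes share 59 bases, they are near-copies of 1 measurement.

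*ASB5* was bright in both channels. Its ratios were -0.48, -0.76, -0.96 and -1.46 on arrays 1 to 4, again all negative, with array 4 the lowest. The mean was -0.92 (SD 0.41), a 1.89-fold lower level (adjusted *P* 0.011). The control signals were 1147, 1120, 1281 and 1584, above the HMB signals of 822, 661, 660 and 574 on each array, and the channels did not overlap.

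**Figure D1:**
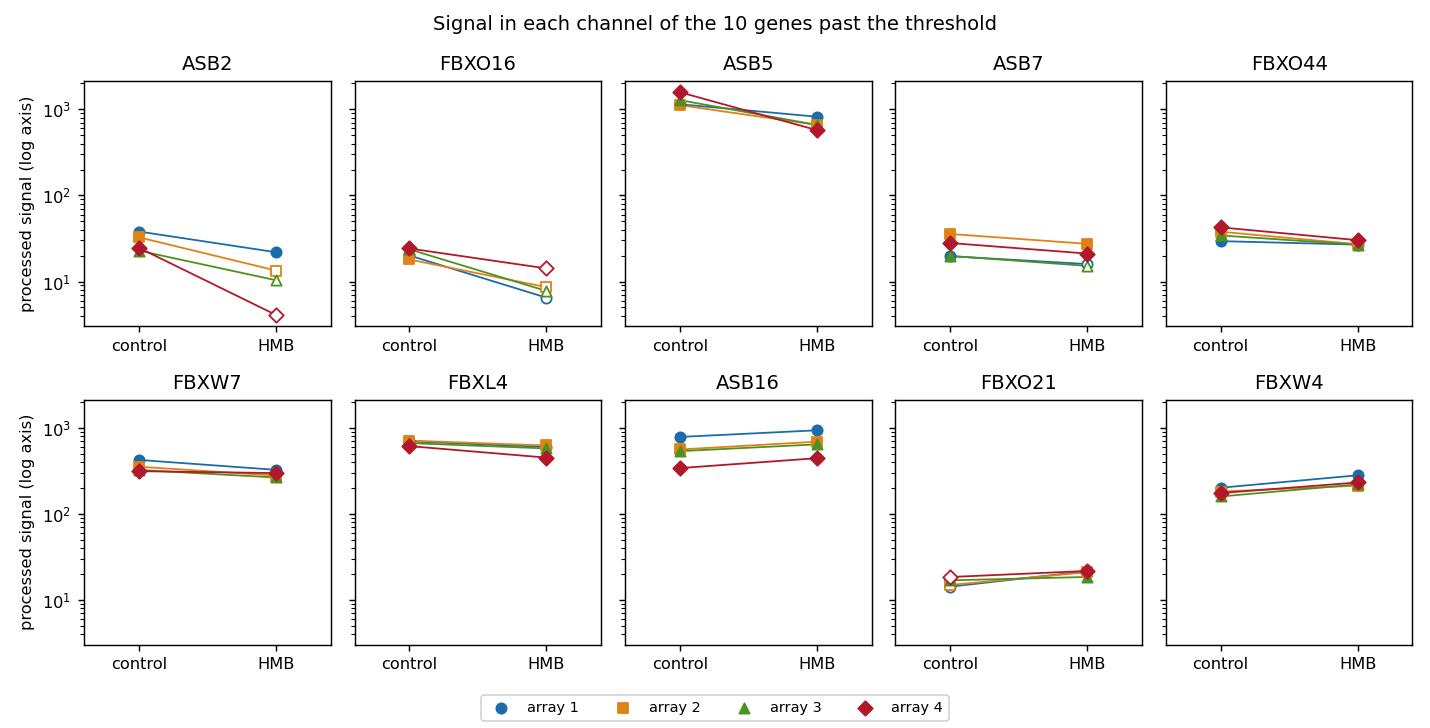
Processed signal (log axis) in control and HMB-treated ESC for the 10 genes past the threshold, with 1 line per array. Filled symbols are well above background and open symbols are not. *ASB5* falls from between 1120 and 1584 to between 574 and 822, while in *ASB2* and *FBXO16* most HMB symbols are open.

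*ASB5* moved with the markers of muscle cells. *ASB2* was lower too, but its HMB channel was above background on 1 array, so its order over the arrays is not compared with theirs. Of 14 muscle markers, 13 were tested and all 13 were lower with HMB, with a median log2 ratio of -0.87 against 0.02 over all genes tested, and *PAX7* was dim. The median of the markers was -0.44, -0.80, -0.95 and -1.26 on arrays 1 to 4, so that array 1 was the least and array 4 the most negative, as for *ASB5*. This order is not particular to *ASB5*, as the ratios of *FBXO17* and *FBXL5*, not past the threshold, also fell from array 1 to array 4. *MYH8*, a perinatal myosin, had a mean of -1.93 (adjusted *P* 0.001) and *MYF5*, a myogenic regulator, -1.01 (adjusted *P* 0.002). *MYOG*, a driver of terminal differentiation, had -0.42 (adjusted *P* 0.022), and *DES*, the muscle intermediate filament, -0.98 (adjusted *P* 0.007). The summed signal of the 13 probes was 228000, 227000, 246000 and 257000 in control ESC and 163000, 116000, 108000 and 97400 in HMB-treated ESC, with *MYH3* the brightest. The part of these markers in the falls of *ASB2* and *ASB5* was not tested, and fewer muscle cells cannot be told apart from less RNA per cell.

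Markers of fibroblasts had no common direction. All 7 were tested with a median of 0.01, and 2 were higher, *PDGFRA* with 1.53 (adjusted *P* 0.004) and *FAP* with 0.42 (adjusted *P* 0.018). *COL1A2*, their brightest, had -0.20 (adjusted *P* 0.247) and *COL1A1* -0.54 (adjusted *P* 0.137). Their summed signal was 277000, 257000, 279000 and 353000 in control ESC and 330000, 232000, 249000 and 250000 in HMB-treated ESC. None of the 5 endothelial or 4 adipocyte markers was tested, all those found being dim. Of 6 leukocyte markers 3 were tested, and *CD14* with 0.02 and *CD68* with -0.29 were not past the threshold. *PTPRC*, the brightest of them, was matched only through the description in the files. It has 8 tested probes of 15, and these disagree. Whether all of them measure 1 transcript was not tested. The brightest had 0.28 (adjusted *P* 0.037), and the others of high signal had 0.28 to 0.37, all past the threshold. The dimmest tested ones had -0.32 (adjusted *P* 0.169) and -0.48 (adjusted *P* 0.026). The summed leukocyte signal includes the brightest *PTPRC* probe. This sum was 16900, 14900, 17200 and 15600 in control ESC and 22100, 16600, 19200 and 16500 in HMB-treated ESC. ESC thus carried the muscle markers that their label implies, and fibroblast collagen was also bright.

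**Figure D2:**
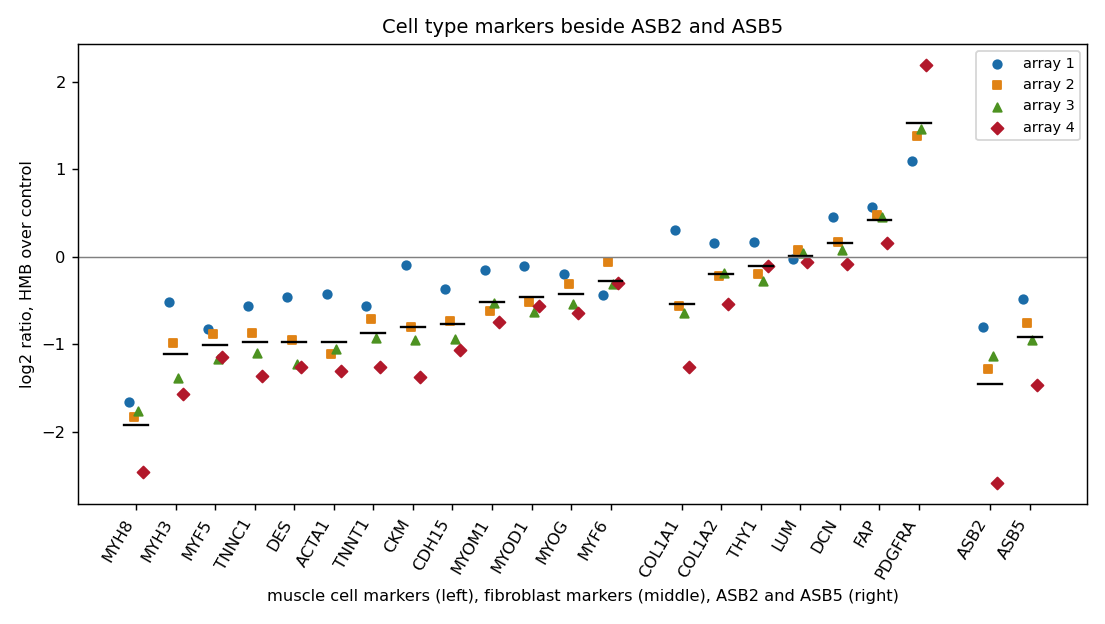
Log2 ratio on each array (symbols) and its mean (bar) for muscle cell markers, fibroblast markers, *ASB2* and *ASB5*. The means of the 13 muscle markers lie between -1.93 and -0.28, and *ASB2* and *ASB5* at -1.45 and -0.92.

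*ASB8*, *ASB10*, *ASB12* and *ASB14*, which also have a place in muscle, did not pass the threshold. *ASB8* had 0.00, -0.17, -0.17 and -0.66 (mean -0.25, adjusted *P* 0.156), so that its mean rests mostly on array 4. *ASB10* had 0.10, -0.33, -0.03 and -0.32 (mean -0.15, adjusted *P* 0.296). *ASB12* had 0.00, -0.11, 0.01 and -0.02 (mean -0.03, adjusted *P* 0.734, 95% interval -0.17 to 0.11). *ASB12* thus varied little between arrays, and its interval ended far from the mean of *ASB5*. *ASB14* had 0.04, -0.21, 0.01 and 0.04, near 0 on all but array 2 (mean -0.03, adjusted *P* 0.776). *ASB11*, which acts in muscle regeneration of fish, was dim in both channels on all arrays. *ASB15* is known in the files only by an accession, so it is outside the rule, and its probe was above background on no array.

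*ASB16* had ratios of 0.26, 0.30, 0.26 and 0.38. It was higher with HMB on all arrays and varied little (mean 0.30, SD 0.06, 1.23-fold, adjusted *P* 0.018). Its signal was 784, 561, 536 and 341 in control ESC and 936, 691, 643 and 444 in HMB-treated ESC, so that the channels overlapped between arrays although each array was higher. *ASB4*, an adaptor of differentiating vascular cells, had 0.07, 0.15, 0.77 and 0.91 (mean 0.48, adjusted *P* 0.075). Its ratio was near 0 on arrays 1 and 2 and high on arrays 3 and 4, and 2 of its 4 control channels were above background.

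*ASB7*, which acts in cell division, had -0.30, -0.38, -0.38 and -0.41. These were among the most even ratios of all members (mean -0.37, SD 0.045, adjusted *P* 0.010), at least 1.27-fold lower from the deposited signals. With the background correction that adds an offset the mean was -0.12, a smaller fall than that bound, and not past the threshold (adjusted *P* 0.140). All control channels and 2 of 4 HMB channels were above background, with signals of 19.7 to 35.7 in control and 15.2 to 27.4 in HMB-treated ESC. Its dim probe, which shares 20 bases, had -1.36, -1.0, -0.59 and 0.06 with no channel above background. *ASB1*, *ASB3* and *ASB13* had means of 0.07, 0.01 and -0.06, and none passed the threshold. In all, 4 of 12 tested ASB genes passed, 3 lower and 1 higher, but *ASB2* and *ASB7* were tested through their brighter channel. Among ASB genes bright in both channels 2 of 9 passed (22.2%), against 20.8% of all such genes. *ASB9*, *ASB11* and *ASB17* were dim.

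*FBXO16* was also lower with HMB, but its probes disagree. They share 17 bases, in capitals, and the tested one spans 6792 bases of the genome, that is, an intron lies within it.
FBXO16 tested probe: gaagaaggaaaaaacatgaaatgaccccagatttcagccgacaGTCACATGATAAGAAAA
FBXO16 dim probe: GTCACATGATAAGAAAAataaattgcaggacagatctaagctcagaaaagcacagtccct
The tested probe is at chrUn:50335975-50342766 and the dim one at chrUn:50335932-50335991, both listed with descending coordinates. The tested probe had -1.63, -1.07, -1.61 and -0.77 (mean -1.27, SD 0.42, adjusted *P* 0.004), negative on all arrays. Its HMB channel was above background on no array, so the fold is a bound, at least 1.36-fold lower in HMB-treated ESC from the deposited signals. With the background correction that adds an offset the mean was -0.25, a smaller fall than that bound (adjusted *P* 0.025, with 0.001 to 0.084 over the alternatives that tested the probe). The other probe had -0.63, 0.57, -0.06 and -0.17, which is of both signs, with 3 control and 2 HMB channels above background. It is called dim because neither channel passed the filter on all arrays, yet it was the brighter probe on average. With no filter it stands for *FBXO16*, with a mean of -0.07 and not past the threshold (adjusted *P* 0.929). The cause of the difference between the probes was not tested.

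Among the F-box genes that act on growth and cell cycle, *FBXW7* was lower. *FBXW7* removes *MYC*, cyclin E and Notch. It had -0.38, -0.34, -0.29 and -0.07 on arrays 1 to 4, negative throughout and nearest to 0 on array 4 (mean -0.27, SD 0.14, 1.21-fold lower, adjusted *P* 0.043). *FBXO31*, an adaptor for cyclin D1, had 0.05, -0.19, -0.22 and -0.05, of both signs (mean -0.10, adjusted *P* 0.330). *FBXO5*, an inhibitor of the anaphase-promoting complex, had 0.05, 0.21, -0.34 and 0.27 (mean 0.05, adjusted *P* 0.789). *FBXO9*, which acts on the partners of mTOR, had -0.37, -0.19, -0.16 and -0.09 and was negative on all arrays without passing the threshold (mean -0.20, adjusted *P* 0.081). It was past it with the background correction that adds an offset (mean -0.23, adjusted *P* 0.034), and its mean was 0.01 without lowess, the array-wise fit that evens out dye effects along intensity. Leaving it out raised the median over all genes from 0.02 to 0.14, and *FBXO9* then lay at -0.13 relative to that median.

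*FBXL4* sits in mitochondria and restrains their removal. It had -0.22, -0.19, -0.21 and -0.44, negative on all arrays with array 4 apart from the rest (mean -0.26, SD 0.12, 1.20-fold lower, adjusted *P* 0.041). *FBXL5*, the iron sensor that removes iron regulatory protein, had 0.20, 0.05, -0.17 and -0.71, of both signs (mean -0.16, adjusted *P* 0.475). *FBXL21*, which acts on the clock repressors, was dim, with 1 control and 2 HMB channels above background. *FBXL22*, known from heart and skeletal muscle, was dim with 1 control channel above background. Of 13 tested FBXL genes only *FBXL4* passed (7.69%, against 22.4% of all genes), and their median was -0.05.

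*FBXW4*, a gene of limb development, rose. Its ratios were 0.48, 0.23, 0.47 and 0.41, positive on all arrays, with signals of 202, 182, 160 and 175 in control and 281, 213, 220 and 232 in HMB-treated ESC. Every HMB channel was above every control channel (mean 0.39, SD 0.12, 1.31-fold, adjusted *P* 0.013). *FBXO21*, which removes the differentiation inhibitor EID1, had 0.60, 0.49, 0.13 and 0.23 (mean 0.36, SD 0.22, adjusted *P* 0.038), at least 1.23-fold higher from the deposited signals. With the offset correction the mean was 0.08, below that bound and not past the threshold (adjusted *P* 0.336). *FBXO21* was positive on all arrays, but its control channel was above background on 1, and its dim probe, with 40 bases in common, had 0.29, 0.59, -0.05 and 0.03. That probe failed the filter but was the brighter on average. With no filter it stands for *FBXO21*, with a mean of 0.21 and not past the threshold (adjusted *P* 0.367). *FBXO40*, which acts on *IRS1* in muscle, was above background in no channel.

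*FBXO2*, *FBXO6* and *FBXO44* are neighbours on chromosome 2 and share an F-box associated domain, which in *FBXO2* and *FBXO6* binds glycans. The *FBXO44* probe lies 9791 bases from that of *FBXO6* and 7176 from that of *FBXO2*. The probes of *FBXO44* and *FBXO6* are shown because they are close neighbours with opposite signs.
FBXO44: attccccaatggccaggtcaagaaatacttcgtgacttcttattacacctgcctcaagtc
FBXO6 brighter probe: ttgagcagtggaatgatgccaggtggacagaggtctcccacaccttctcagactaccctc
FBXO6 other probe: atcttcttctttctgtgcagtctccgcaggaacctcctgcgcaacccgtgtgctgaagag
They lie at chr2:38038427-38038623, chr2:38028359-38028636 and chr2:38030376-38032366, listed with descending coordinates, and each spans an intron. *FBXO44* had -0.13, -0.48, -0.36 and -0.49, negative on all arrays (mean -0.37, SD 0.17, 1.29-fold lower, adjusted *P* 0.024). Its processed signal was low, 29.5 to 42.6 in control and 26.8 to 30.2 in HMB-treated ESC, although all channels were above background. With the offset correction its mean was -0.11 and not past the threshold (adjusted *P* 0.173), and it lost the call without array 2, 3 or 4. *FBXO2* had 0.19, 0.18, 0.08 and 0.20, positive on all arrays (mean 0.16, adjusted *P* 0.098). The brighter *FBXO6* probe had 0.28, 0.07, 0.18 and 0.01 (mean 0.13, adjusted *P* 0.209). The other *FBXO6* probe, with no shared run of 15 bases, had 0.71, 0.30, 0.21 and 0.23 and passed the threshold (mean 0.36, adjusted *P* 0.045). In the deposited ratios these neighbours thus stood on opposite sides of 0 on all arrays, although whether *FBXO44* differs from the others was not tested. Without lowess *FBXO2* and *FBXO6* lay at 0.001 and -0.002 relative to the median of all genes, and *FBXO44* at -0.57. *FBXO17*, with the same domain and on chromosome 10, had 0.20, -0.16, -0.26 and -0.65 (mean -0.22, adjusted *P* 0.278), and *FBXO27* beside it was dim. *FBXO2*, *FBXO5*, *FBXO6* and *FBXO17* and the genes of the next paragraph were chosen after their values were seen.

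*FBXO15*, known as a marker of pluripotent cells, had the highest mean of all members without passing the threshold. Its ratios were 0.12, 0.28, 0.90 and 1.15 (mean 0.61, SD 0.49, adjusted *P* 0.053), low on arrays 1 and 2 and high on arrays 3 and 4, a split also seen in *ASB4*. Its other probe, which does not overlap it, had 0.05, 0.48, 0.73 and 0.86 and passed (mean 0.53, adjusted *P* 0.036). That probe was above background on 3 control and 4 HMB channels. It was thus tested through the HMB channel in which it is high, and it enters the mean of the probes. *FBXO15* itself passed in 5 alternatives, among them the mean of its probes (adjusted *P* 0.042) and the test without array 1 (0.046), so it lies at the threshold. *FBXO4*, which acts on the telomere protein TRF1, had 0.29, 0.34, 0.27 and 0.07 (mean 0.24, adjusted *P* 0.052), and passed in 4 alternatives, among them without lowess (0.009) and without array 4 (0.030). Relative to the median of all genes *FBXO4* lay at 0.24 without lowess, close to 0.22 with it. *FBXO33* and *FBXO48* were near 0 on arrays 1 to 3 and had 0.68 and 0.68 on array 4. *FBXO3* had -0.01, -0.28, -0.16 and -0.62 (mean -0.27, adjusted *P* 0.116), and *FBXL19* -0.40, -0.04, -0.27 and -0.14 (mean -0.21, adjusted *P* 0.095).

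**Figure D3:**
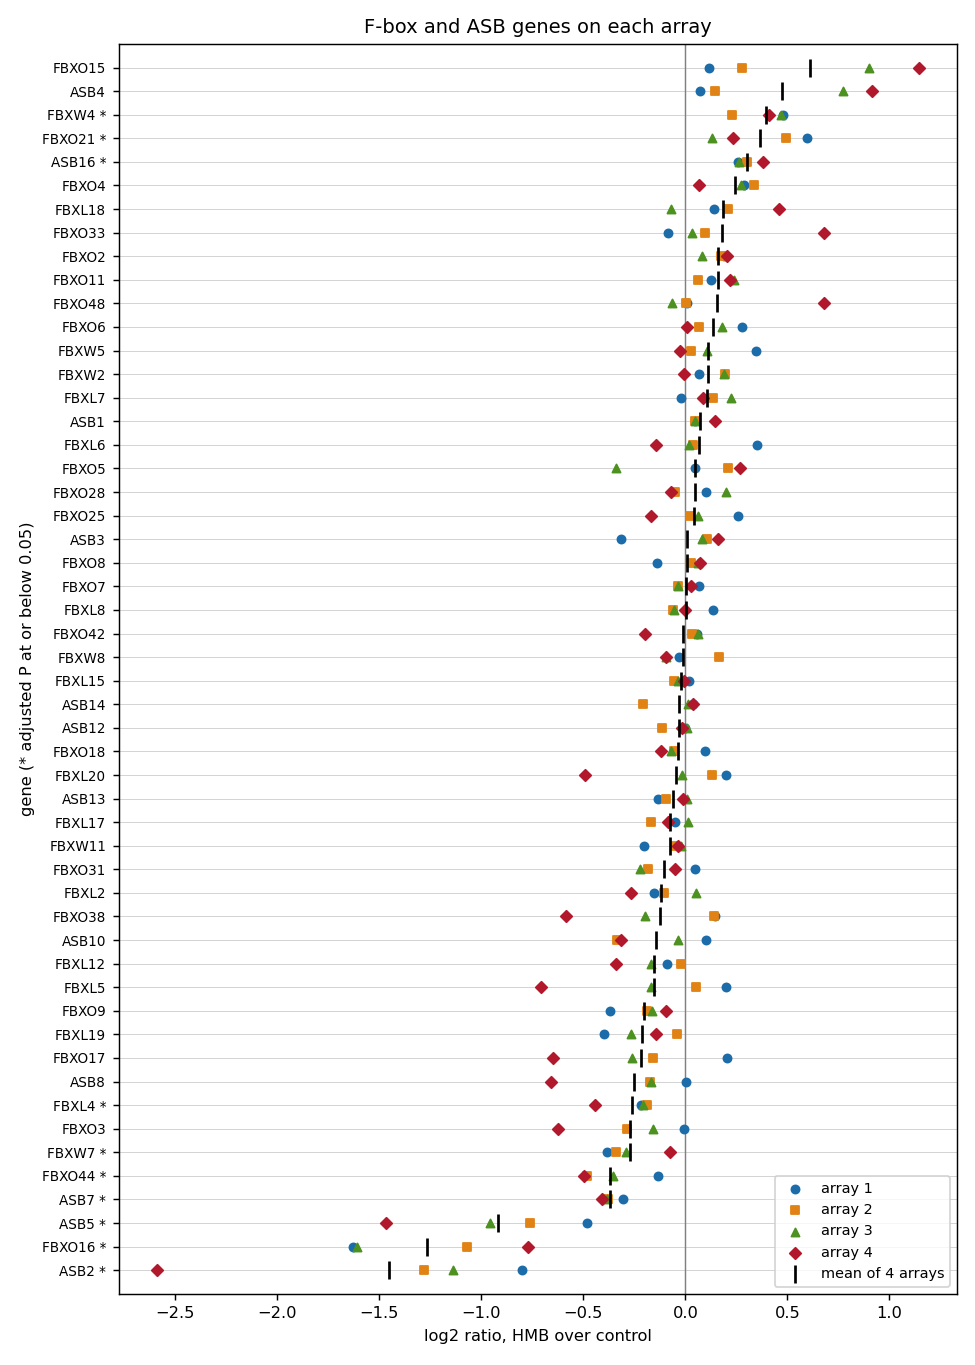
Log2 ratio of 52 of the 53 tested genes on each array (symbols) with the mean (bar), ordered by mean, with an asterisk for an adjusted *P* at or below 0.05. Most means lie close to 0, and those of *ASB2*, *FBXO16* and *ASB5* are -1.45, -1.27 and -0.92. As HMB signals of *ASB2* and *FBXO16* are near background, these genes are not ranked.

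The 43 genes not past the threshold had means from -0.27 to 0.61 with a median of 0.00 and a median SD of 0.13. Over all 53 genes the median was -0.01, against 0.02 over all genes tested, and the median SD was 0.13 against 0.16. Of the 53, 22 had the same sign on all 4 arrays (41.5%), 10 positive and 12 negative, and this was so for 45.8% of all genes. Ratios were positive for 31, 27, 26 and 20 of the 53 genes on arrays 1 to 4, that is 58.5, 50.9, 49.1 and 37.7%. Over all genes the shares were 52.0, 51.2, 54.9 and 51.3%, so that array 4 had the fewest positive members. Array 4 also had the widest ratios over all tested probes (SD 0.48, against 0.34 to 0.39 on the others).

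Of 11 genes with several tested probes, 10 had the same sign on all of them, and the median distance between the highest and the lowest probe was 0.06. *FBXO42*, an adaptor for p53, has 5 probes that each shift by 1 base and are near-copies, with means from -0.03 to 0.01, and on any array the SD between them was at most 0.03. In the other 9 genes shown, the largest SD between probes on an array was 0.096 to 0.31. In *FBXO6*, *FBXO28* and *FBXW11* it was above the SD of the brightest probe between arrays. The widest distance between means, 0.23, was between the *FBXO6* probes. *FBXO38* and *FBXO48* have 3 tested probes each, which spanned 0.03 and 0.04.

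**Figure D4:**
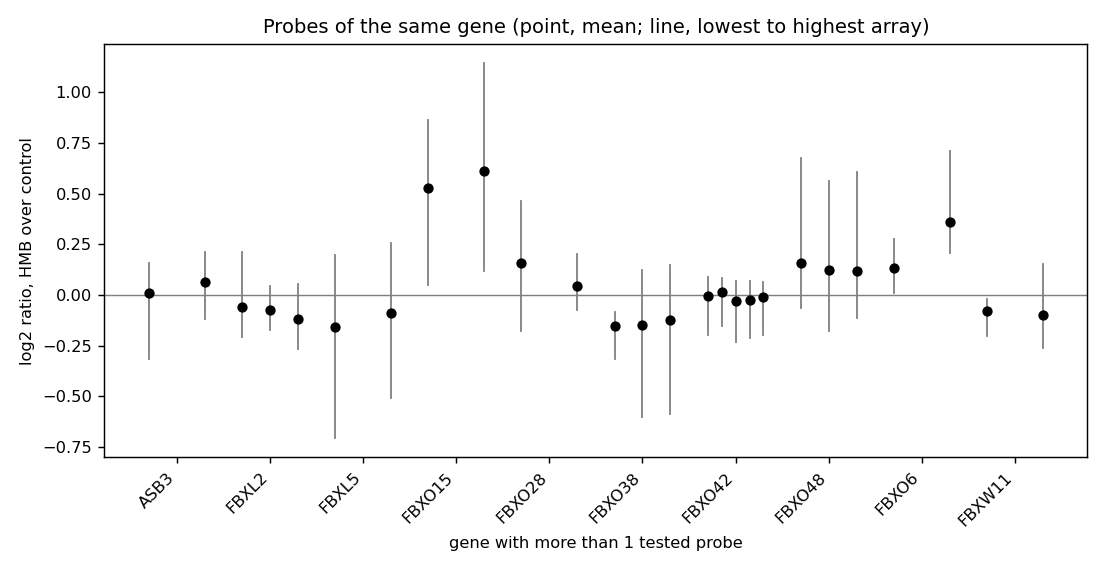
Mean log2 ratio of each tested probe (point) and its lowest and highest array (line) for 10 of the 11 genes with several tested probes. The means lie 0.23 apart for *FBXO6* and 0.04 apart for the 5 near-copies of *FBXO42*.

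The dim genes were *ASB9*, *ASB11*, *ASB17*, *FBXL16*, *FBXL21*, *FBXL22*, *FBXO10*, *FBXO24*, *FBXO27*, *FBXO36*, *FBXO39*, *FBXO40*, *FBXO41*, *FBXO43*, *FBXO45* and *FBXO47*. *FBXO45*, a partner of *MYCBP2*, came close to the filter, with 3 HMB channels and no control channel above background and ratios of 0.28, 0.74, 0.57 and 1.27. *FBXO39* had 3 control and 2 HMB channels above background. Of the further F-box and ASB genes that the files describe but name only by accession, *ASB6* and *FBXO34* were tested. *ASB6* had a mean of 0.29 (adjusted *P* 0.106), and *FBXO34*, which has a place in muscle, had -0.36, 0.55, -0.07 and 0.23 (mean 0.09, adjusted *P* 0.701), while probes for *ASB15*, *ASB18*, *FBXL13*, *FBXL14*, *FBXO46* and *FBXW9* were dim.

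Of the SCF core, which carries the F-box proteins, (*SKP1*, *CUL1*, *RBX1*, *CDC34* and *UBE2R2*) 4 genes were tested and *SKP1* was lower, 1 of 4 against 22.4% of all genes. *SKP1* had -0.24, -0.21, -0.27 and -0.53 (mean -0.31, adjusted *P* 0.031), negative on all arrays, but it lost the call without array 1 (0.057), 2 (0.087) or 3 (0.097), and its mean was 0.15 when the arrays were only centred on their median, without lowess. Relative to the median of all genes *SKP1* then lay at 0.01. *CUL1* had a mean of 0.00 (95% interval -0.14 to 0.14) and *RBX1* of 0.01. Of the 6 cullin 5 core genes 4 were tested and none passed in limma, with 1 at an unadjusted *P* below 0.05. That was *CUL5*, with 0.06, 0.19, 0.40 and 0.49 (mean 0.28, adjusted *P* 0.063), named after its value was seen.

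*NEDD8* switches cullins on, and CAND proteins exchange their adaptors. Of 21 genes of these steps all were tested, 1 rose and 1 fell (9.52%, against 22.4% of all genes), with a median of 0.01. *NAE1*, a subunit of the enzyme that activates *NEDD8*, had 0.26, 0.36, 0.33 and 0.45, positive on all arrays (mean 0.35, adjusted *P* 0.013). *CAND2*, the muscle form of *CAND1*, had -0.19, -0.61, -0.55 and -0.83, least negative on array 1 as the muscle markers were (mean -0.54, adjusted *P* 0.018). *NAE1* and *CAND2* lost the call without array 2 (0.070 and 0.068) or array 3 (0.059 and 0.064). *CAND1* had a mean of -0.17 (adjusted *P* 0.196).

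Of 10 F-box proteins under other symbols 8 were tested with a median of 0.02 and 1 fell (12.5%). That was *LMO7*, which the files name only by accession, with -0.40, -0.63, -0.84 and -1.55 (mean -0.85, adjusted *P* 0.021, and 0.069 without array 3), lowest on array 4 as the muscle markers were. Of 17 other SOCS box proteins 12 were tested, 2 rose and 1 fell (25.0%, against 22.4% of all genes). *WSB1* had -0.43, -0.56, -0.63 and -0.79, low on all arrays (mean -0.60, adjusted *P* 0.005). Without lowess its mean was -0.09 and not past the threshold, which is -0.22 relative to the median of all genes. The mean of the *WSB1* probes was -0.59 and also not past the threshold in limma (adjusted *P* 0.051). *SOCS4* had 0.21, 0.21, 0.31 and 0.17 (mean 0.22, adjusted *P* 0.042), and *SPSB3* 0.30, 0.16, 0.26 and 0.30 (mean 0.26, adjusted *P* 0.030), positive on all arrays. Both lost the call whichever array was left out (*SOCS4* 0.055 to 0.184, *SPSB3* 0.056 to 0.119), and the mean of the *SOCS4* probes was 0.12 and not past the threshold. Of 6 other cullins, all tested, only *CUL3* passed (16.7%). *CUL3*, which uses BTB adaptors, was lower with -0.21, -0.19, -0.23 and -0.26 (mean -0.22, adjusted *P* 0.038). Without lowess its mean was 0.07, which is -0.07 relative to the median of all genes, and it lost the call whichever array was left out (0.062 to 0.149).

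Of 20 known substrates or partners of the adaptors 18 were tested, 2 rose and 3 fell (27.8%, against 22.4% of all genes), with a median of -0.07. *NOTCH2*, which rose, was tested through its brighter channel, as was *CRY2*. Among the 16 bright in both channels 4 passed (25.0%, against 20.8% of all such genes). *FLNC*, the muscle filamin, had -0.23, -0.60, -0.60 and -0.51 (mean -0.49, adjusted *P* 0.012), and *DES*, also a muscle marker, had -0.47, -0.95, -1.22 and -1.26. *ACTN2*, the muscle actinin, had -0.28, -0.84, -0.97 and -0.96 (mean -0.76, adjusted *P* 0.011). All of these were least negative on array 1, but *FLNC* and *ACTN2* were not lowest on array 4. *FLNC* lost the call without array 2 (0.055) or array 3 (0.053). *FLNA*, the most widely expressed filamin, had a mean of -0.15 (adjusted *P* 0.508). *NOTCH2*, of the receptor family that *FBXW7* removes, had 0.61, 0.55, 0.78 and 1.02, positive on all arrays (mean 0.74, adjusted *P* 0.005). As 1 control channel was above background, the fold is a bound, at least 1.63-fold higher from the deposited signals. With the offset correction the mean was 0.27, a smaller rise than that bound (adjusted *P* 0.013). *NOTCH1*, bright in both channels, had a mean of -0.08 (adjusted *P* 0.474). *MYC* and the cyclin E gene *CCNE1* had -0.08 (adjusted *P* 0.592) and 0.03 (adjusted *P* 0.837). *CRY1*, a clock repressor, had 0.49, 0.92, 0.72 and 0.13, positive on all arrays (mean 0.57, adjusted *P* 0.027). It lost the call in 7 alternatives, with 0.22 after the offset correction and an adjusted *P* of 0.067, 0.086 and 0.096 without arrays 1 to 3. *CRY2* had a mean of -0.10 (adjusted *P* 0.446).

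With 4 arrays the calls depended on each array. *ASB5*, bright in both channels, was still past the threshold with each array left out in turn. So were *ASB2* and *FBXO16*, but they were tested through the control channel in which they are high. The other 7 genes each lost the call without at least 1 array. Without array 2, 4 members passed (7.55%, against 8.95% of all genes), and without array 3, 3 passed (5.66%, against 9.76%), so calls were lost over the whole array as well. *FBXL4* and *FBXO21* lost the call whichever array was left out, with an adjusted *P* of 0.071, 0.121, 0.117 and 0.070 for *FBXL4* and 0.089, 0.144, 0.053 and 0.054 for *FBXO21* without arrays 1 to 4. *FBXW7* lost it without arrays 1 to 3 (0.100, 0.175 and 0.148) and *FBXO44* without arrays 2 to 4 (0.108, 0.085 and 0.057). *ASB16* and *ASB7* lost it without array 2 (0.093 and 0.058) or array 3 (0.073 and 0.0503), and *FBXW4* without array 3 (0.062). Without lowess the means of *FBXL4*, *FBXW7* and *FBXO21* were -0.14, -0.16 and 0.19 and no longer past the threshold. Relative to the median of all genes, which was then 0.14, *FBXL4* and *FBXW7* lay at -0.28 and -0.30, close to -0.28 and -0.29 with lowess, and *FBXO21* at 0.06. With the background correction that adds an offset those of *ASB7*, *FBXO44* and *FBXO21* were -0.12, -0.11 and 0.08, also not past it. The sign of each of the 10 genes held under every alternative that gave its probe a value, and *ASB2*, *ASB7*, *FBXO16* and *FBXO21* have none where both channels must be above background.

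**Figure D5:**
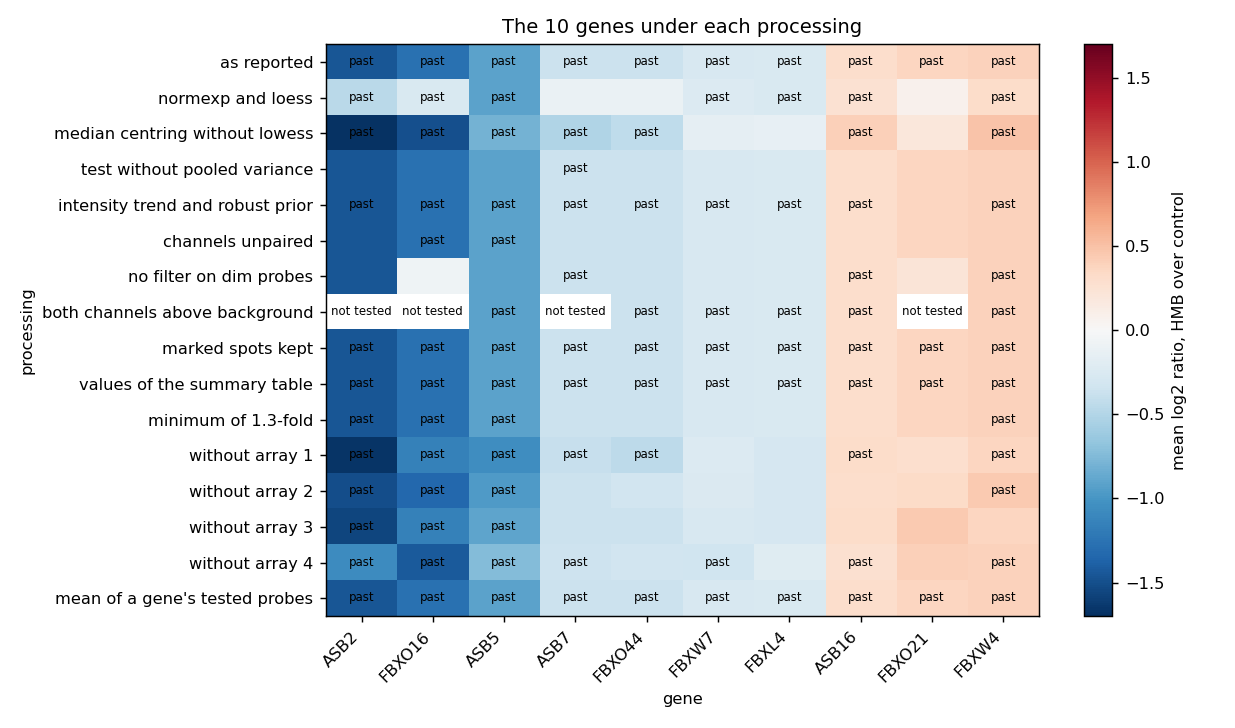
Mean log2 ratio (colour) of the 10 genes under each processing, marked where the gene is past the threshold. *ASB5* is past it in all but the test without pooled variance and the version with no filter, where for *FBXO16* and *FBXO21* the probe that is otherwise dim represents the gene.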

How the data were processed

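Messenger RNA was measured on 4 two-colour arrays. The authors scanned them with Feature Extraction, version 10.10.1.1 in the files and another in the methods. The deposited ratios, Cy5 over Cy3 as log10, follow background subtraction and linear and lowess normalisation, and the deposited processed signals are on the intensity scale. Ratios were multiplied by 3.32 to log2. Control spots and spots marked non-uniform or outlying were left out, and spots of a probe averaged. The test was limma 3.58.1 under R 4.3.3 (two-sided, intercept model), with Benjamini and Hochberg adjustment over the 27384 tested probes, of which 6257 were past 0.05. The tested probe of highest mean intensity stands for a gene. Median signal was 3.16 to 3.82 times background in Cy3 and 4.68 to 5.85 times in Cy5, and the number of arrays limits precision. Tables were summarised with Python 3.11.15 and pandas 2.3.3.

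Genes named with values are members that passed and had 1 sign on all arrays, members with a place in muscle, and up to 3 rises and 3 falls past the threshold of each pathway list. Others were chosen after their values were seen. Members and lists were chosen with earlier results of these data known. Values of 2 genes are not reported here, although both enter the counts. List genes were matched by symbol, alias, RefSeq accession or, for 14 that the files name otherwise, the description in the files. Alternatives were normexp correction with an offset of 50 and loess, median centring without lowess, a probe-wise test without pooled variance, a trend with robust prior, unpaired channels, other filters, marked spots kept, the summary table, all probes of a gene, a 1.3-fold minimum and each array left out.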

Additional observations from a re-analysis of the deposited data

Results flagged for a closer look

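In 7 of 67 ratios examined, an array stood far from the other 3, its gap to the nearest as a share of the range being above the 95% critical value of Dixon. Chance alone gives about 1 in 20 such cases. Array 4 was the stray one in 4 of them, array 1 in 2 and array 2 in 1. *FBXO42* had -0.20 on array 4, against 0.03 to 0.06 on the others, and all 5 of its overlapping probes share that array. *FBXO48* had 0.68 on array 4, against -0.06 to 0.01. *FBXL4*, which is past the threshold, had -0.44 on array 4, against -0.22 to -0.19, and its mean without array 4 was -0.20 (adjusted *P* 0.070, with 0.071, 0.121 and 0.117 without array 1, 2 or 3, and 0.026 to 0.204 over the alternatives other than the fold minimum). *ASB1* had 0.15 on array 4, against 0.04 to 0.05. On array 1, *FBXW11* had -0.20, against -0.05 to -0.02 (its other tested probe had -0.17, 0.15, -0.11 and -0.26 and was lowest on array 4), and *ASB3* had -0.31, against 0.08 to 0.16. *ASB14* had -0.21 on array 2, against 0.01 to 0.04. What sets these arrays apart was not tested.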

How the results depend on the processing

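The count of F-box and ASB genes past the threshold was 10 (18.9%, against 22.4% of all genes). It became 1 with a test without pooled variance, each probe on its own (1.89%, against 2.63%), and 2 with unpaired channels (3.77%, against 7.72%). It was 3 with no filter on dim probes (4.35%, against 8.24%) and 4 with a 1.3-fold minimum (7.55%, against 13.7%). Without lowess it was 13 (24.5%, against 37.9%), and with both channels above background 7 (14.6%, against 21.4%). It ranged from 3 to 8 with an array left out (5.66 to 15.1%, against 8.95 to 17.6%). Genes higher and past the threshold were 3 in number, and became 7 without lowess (where 77.0% of all called probes were higher, against 49.1% with it), 0 with that test, 0 with unpaired channels and 1 with the fold minimum, and from 0 to 3 with an array left out. Genes lower were 7, and became 1 with that test, 2 with unpaired channels, 1 with no filter, 4 with both channels above background and 3 with the fold minimum, and from 3 to 5 with an array left out. Over all probes the count was 6257, and became 10969 without lowess, 768 with that test, 2226 with unpaired channels, 3690 with no filter and 3863 with the fold minimum, and from 2564 to 4981 with an array left out. With no filter more probes enter the adjustment and another probe stands for *FBXO16* and *FBXO21*. The fold minimum can only remove calls. The cause of the other changes was not tested.

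Without lowess *SKP1* went from -0.31 to 0.15 and *CUL3* from -0.22 to 0.067, neither past the threshold there. The median over all genes then rose from 0.02 to 0.14, and relative to it they lay at 0.01 and -0.07. Over the 45 named genes, 382 of 501 values kept their side of the threshold, 108 lost it and 11 gained it. This leaves out the fold minimum, the summary table, which equals the deposited ratios and tests nothing, the mean of probes where a gene has 1 tested probe, and marked spots, which left each of these ratios as it was. A ratio past the threshold in neither processing was given no direction, and 17 of these changed sign. In a probe near background, as for *ASB2*, *FBXO16* and *FBXO21*, signal over background limits the size of the ratio.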
